A study of Mus musculus with 4 samples.

Results

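Vascular smooth muscle cells of the mouse kidney were taken from single-cell RNA sequencing libraries by a rule on a few marker genes, and 707 of 40939 cells that passed quality limits met it. A barcode was kept with at least 500 UMIs, at least 300 genes and a mitochondrial share of UMIs under 50%. A member had UMIs for at least 2 of the 4 smooth muscle markers Acta2, Myh11, Tagln and Cnn1, with Myh11 always among them. It had under 30 Ren1 UMIs per 10000, no UMI of Ptprc, Pecam1 or Cdh5, and under 10 UMIs per 10000 of Umod and of Gpx3. The cells were thus chosen by their own UMI counts of these genes, so the levels of the rule's genes are given as a description and no test uses them.

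The libraries came from 4 wild-type mice with contrast-induced acute kidney injury, which is kidney damage after an injected radiographic contrast medium. Dissociated kidney tissue was run on the 10x Genomics droplet platform, and the labels put all 4 libraries in 1 treated group and in batch 1. The sources used here do not name the contrast agent, its dose or the time after it, nor the strain, age and sex of the mice. Untreated kidneys are not among these 4 samples. Every comparison below was therefore made between cell classes of the same injured kidneys: smooth muscle cells against pericyte and mesangial cells, and smooth muscle cells against renin-high cells.

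Smooth muscle cells wrap the renal artery, its branches and the glomerular arterioles, and their contraction sets renal blood flow and filtration pressure. Calcium entering through voltage-gated channels activates myosin light chain kinase, and cyclic GMP signalling and myosin phosphatase oppose it. Serum response factor with its coactivator myocardin drives the contractile genes through a short DNA element, the CArG box. Pericytes and mesangial cells are the contractile support cells of capillaries and of the glomerular tuft, and renin-secreting juxtaglomerular cells sit in the wall of the afferent arteriole and belong to the same lineage as its smooth muscle.

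The promoters of the contractile list are shown because its genes were at high levels together in these cells. A window of 250 bases before to 50 bases after each gene's start was read from RefSeq for GRCm38.p6, and 17 of the list's 19 genes had one. The CArG box was the only motif searched, as the exact pattern CCWWWWWWGG, where W is A or T, which reads the same on both strands. Boxes that differ from this pattern at any base were not searched. It was found in the windows of 4 of these 17 genes (23.5%), Myl9, Myl6, Ldb3 and Vcl, against 488 of the 27025 genes with a window in the table (1.81%). The windows of Acta2 and Cnn1 held no exact match, which does not show that they lack a box of another form, and Myh11 and Tagln had no window. The match is a description of these letters and was not tested as a site. The 250 bases before the start are given 5′ to 3′ for these 4 genes, with the box in capitals. For Myl9 (myosin regulatory light chain) they are chr2:156775214-156775463, strand plus, and its box starts at position -161 from the gene's start. For Myl6 (myosin essential light chain) they are chr10:128493010-128493259, strand minus, with the box at -50. For the downstream one of the 2 Ldb3 starts whose windows hold the box (a Z-line LIM protein) they are chr14:34588608-34588857, strand minus, with the box at -109. For Vcl (vinculin, which ties actin to adhesion sites) they are chr14:20929148-20929397, strand plus, with the box at -227.
Myl9: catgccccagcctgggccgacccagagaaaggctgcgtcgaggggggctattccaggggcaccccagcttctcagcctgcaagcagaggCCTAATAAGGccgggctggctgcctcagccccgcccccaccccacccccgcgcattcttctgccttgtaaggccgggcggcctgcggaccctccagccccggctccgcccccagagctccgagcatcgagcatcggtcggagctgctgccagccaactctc
Myl6: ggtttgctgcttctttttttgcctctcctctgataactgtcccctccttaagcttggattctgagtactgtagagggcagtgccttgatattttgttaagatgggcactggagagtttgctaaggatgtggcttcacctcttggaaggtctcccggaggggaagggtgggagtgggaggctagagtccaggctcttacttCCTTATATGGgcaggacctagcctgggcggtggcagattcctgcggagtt
Ldb3: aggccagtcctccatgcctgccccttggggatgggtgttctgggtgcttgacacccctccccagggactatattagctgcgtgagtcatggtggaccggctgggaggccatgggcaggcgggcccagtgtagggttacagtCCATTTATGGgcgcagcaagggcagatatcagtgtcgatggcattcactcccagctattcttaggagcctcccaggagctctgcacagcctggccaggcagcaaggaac
Vcl: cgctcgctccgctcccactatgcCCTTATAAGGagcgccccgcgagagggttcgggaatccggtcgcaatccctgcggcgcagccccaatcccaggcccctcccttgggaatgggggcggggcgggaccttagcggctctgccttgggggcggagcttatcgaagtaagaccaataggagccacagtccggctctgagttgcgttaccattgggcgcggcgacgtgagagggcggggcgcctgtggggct

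The 4 matrices held 8790, 9368, 17312 and 12743 barcodes with 36831995 to 105436725 UMIs each, and 7085, 8858, 12904 and 12092 cells were kept. The kept cells had a median of 5549, 5815 and 5655 UMIs in mice 1, 2 and 3 and 2077 in mouse 4. Over all barcodes, before the limits on cells, the overlaps between pairs of libraries summed to 120, and mouse 4 shared 1 with the other 3. No barcode was a member in more than 1 library. Library 3 stood apart: the summed interferon and antigen presentation genes were higher there than in mice 1 and 2 in each of the 5 cell classes set side by side below, and it supplied 83.6% of the members. Library 4 gave 4 members. Levels are therefore given for each mouse, means and SDs use mice 1, 2 and 3, and the tests are given with and without mouse 3.

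The rule found 38, 74, 591 and 4 smooth muscle cells in mice 1, 2, 3 and 4. Mouse 1 had them at 0.536% of kept cells (exact 95% interval from 0.380 to 0.735) and mouse 2 at 0.835% (from 0.657 to 1.05). The share was 4.58% in mouse 3 (from 4.23 to 4.95) and 0.0331% in mouse 4 (from 0.00901 to 0.0847). Mouse 3 stood highest, and the mean of the other 3 mice was 0.468% ± 0.405 (SD, n = 3). The intervals of all 4 mice are apart, except that those of mice 1 and 2 overlap. Renin-high cells numbered 27, 51, 140 and 5, and pericyte and mesangial cells 13, 11, 78 and 2, so both were also most numerous in mouse 3. The intervals cover counting error only. Mouse 4, which gave the fewest, also had the lowest depth per kept cell, and the part of depth in the shares was not tested. Members had a median of 9085.5, 9987, 8370 and 2485 UMIs and of 3086, 3732.5, 3147 and 1363.5 genes per cell in mice 1, 2, 3 and 4.

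**Figure D1:**
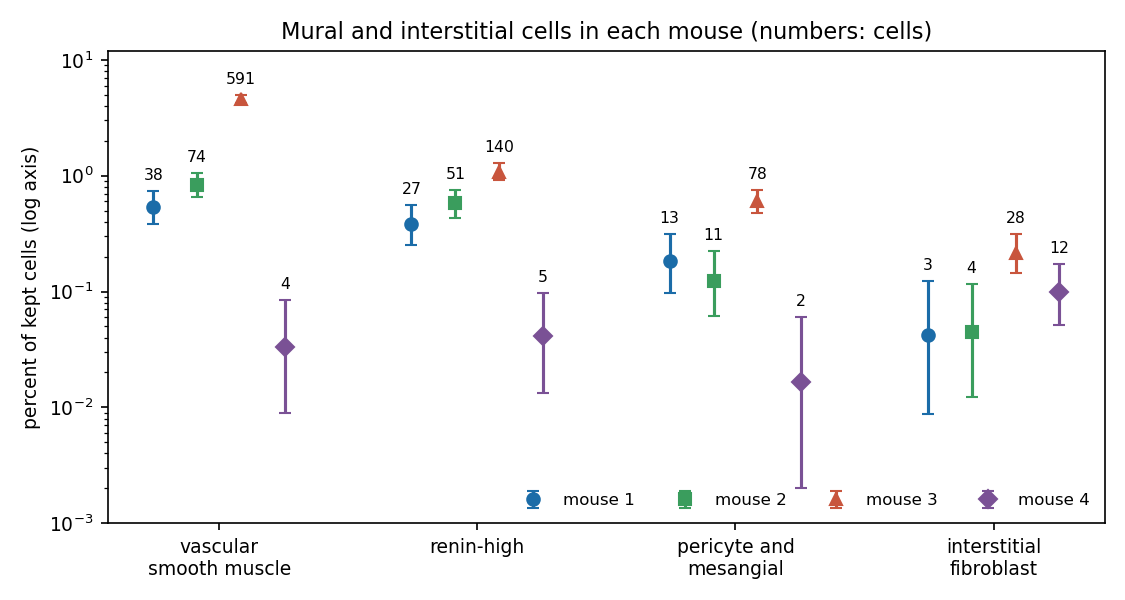
Share of kept cells (percent, log axis) that each mural class made up in each of the 4 mice, with exact 95% intervals and the number of cells printed at each point. Smooth muscle cells were between 0.0331% of cells in mouse 4 and 4.58% in mouse 3.

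Most members lay well inside the rule. Of the 707, 511 had 3 of the 4 markers, 119 had all 4 and 77 had 2, and 57 had a single Myh11 UMI. Ren1, which the rule allowed below its limit, was absent from 438 members, was above 0 and under 10 per 10000 in 199, and was 10 to under 30 per 10000 in 70. Just inside that limit, 32 members had 20 to under 30 per 10000, and just outside it, 18 cells that met the marker rule had 30 to under 40. Just outside the marker rule, 73 cells had Myh11 but no other marker and 65 had at least 2 markers without Myh11. The exclusions took away 204 cells with a Ptprc UMI, 212 with a Pecam1 or Cdh5 UMI and 60 with Umod or Gpx3 at or above the limit. Their weight differed by mouse. Cells with a Ptprc UMI numbered 48, 35, 121 and 0 in mice 1, 2, 3 and 4, beside 38, 74, 591 and 4 members. Those with a Pecam1 or Cdh5 UMI numbered 21, 21, 168 and 2. The part of the exclusions in the shares of members was not tested.

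The label of these cells was checked against genes outside the rule. Levels are given in CPM, the gene's UMIs scaled to a fixed total of all UMIs that the class had in that mouse. Lmod1, a leiomodin that nucleates actin filaments in smooth muscle, was at 767, 847 and 417 CPM in smooth muscle cells of mice 1, 2 and 3, and at 0, 0 and 5.41 CPM in T lymphocytes, a class that should lack it. Myl9 was at 2399, 2867 and 856 CPM in smooth muscle cells and 0.617, 6.74 and 19.5 CPM in T lymphocytes. The groups did not overlap for either gene, and the T lymphocytes' highest value was in mouse 3 for both. An Lmod1 UMI was found in 83.2% of smooth muscle cells and in 0.369% of T lymphocytes (means over 3 and 4 mice). With every cell thinned to 1000 UMIs these shares were 38.4% and 0.0926%. The median depth was 8370 to 9987 UMIs in smooth muscle cells of mice 1, 2 and 3, and 1957 to 6177 UMIs in T lymphocytes of the 4 mice. For Mylk, myosin light chain kinase, the shares were 96.7% of smooth muscle cells and 3.21% of T lymphocytes, or 72.9% and 1.14% after thinning.

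Among the rule's own genes, Acta2, smooth muscle actin, was at 6889, 8661 and 8607 CPM in mice 1, 2 and 3. Myh11, the smooth muscle myosin heavy chain, was at 5061, 5503 and 2360.4 CPM. Tagln, the actin-binding protein transgelin, was at 4083, 5116 and 2969 CPM. Acta2 was close to even across the 3 mice, while Myh11 and Tagln were lowest in mouse 3. Cnn1, calponin, was the sparsest of the 4 at 182, 237 and 41.8 CPM, and its median cell had no UMI in any of the 4 mice. Acta2 also varied from cell to cell: in mouse 3 the lower and upper quartiles were 11.9 and 124 UMIs per 10000.

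Markers of most other classes were low but present, while the summed pericyte and mesangial markers were high. The 8 pericyte and mesangial markers summed to 8270 CPM in mouse 1, 8671 CPM in mouse 2 and 5361 CPM in mouse 3 in members, against 2666, 3201 and 3601 CPM in the pericyte and mesangial cells of the same mice. Most of the members' sum was Rgs5, at 5124, 6129 and 3856 CPM in members and 67.2, 531 and 1861 CPM in pericyte and mesangial cells. The sum was thus higher in members than in the class named after these markers, in each of the 3 mice, largely through Rgs5. Notch3 was also higher in members in each mouse. Gata3, another of the 8, was lower in members in the fit below (log2 fold change -1.49). The sum therefore does not stand for each of the 8 markers. Over mice 1, 2 and 3, the summed level of the 10 endothelial markers was 236 to 259 CPM in members (Pecam1 and Cdh5 at 0 by the rule), against 9120 to 19092 CPM in endothelial cells. The 9 fibroblast markers summed to 109 to 159 CPM, with Dpt and Fbln1 at 0. The 10 proximal tubule markers summed to 103 to 259 CPM and the 7 neutrophil markers to 324, 378 and 49.3 CPM in mice 1, 2 and 3. The neutrophil sum over all kept cells was 29005, 29552 and 4621 CPM in the same mice, so both were highest in mice 1 and 2. At least 3 markers of another class were found in 131 of the 707 members, among them 51 with proximal tubule markers, 42 with neutrophil markers and 42 with endothelial markers. The neutrophil-marked cells were 12, 29, 1 and 0 in mice 1, 2, 3 and 4. Leaving out all 131 left 21, 41, 510 and 4 members. Whether they are doublets or carry free RNA was not tested beyond that.

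Outside the rule's genes, the mitochondrial genes and the ribosomal protein genes, the highest mean levels belonged to Malat1 (50085 CPM) and to the ribosomal RNA entry Rn18s-rs5 (50078 CPM), then Actb (6203 CPM). Rgs5, which dampens G protein signalling in mural cells, followed at 5036 CPM and the matrix-associated Sparcl1 at 3878 CPM. Contractile genes made up 4 of the top 15: Cald1 (caldesmon) at 3737 CPM, Tpm1 at 3487 CPM, Myl6 at 2441 CPM and Mylk at 2302 CPM. Prkg1, the cyclic GMP-dependent kinase through which nitric oxide relaxes smooth muscle, averaged 2774 CPM, and the RNA-binding protein gene Rbpms 2157 CPM. The immediate early gene Fos averaged 3032 CPM and the secreted Igfbp7 3366 CPM. Ifitm3, an interferon-induced gene, reached its mean of 2445 CPM through mouse 3, with 532, 670 and 6133 CPM in mice 1, 2 and 3.

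Smooth muscle cells were first compared with pericyte and mesangial cells of the same mouse, which were set by Pdgfrb with Rgs5, Cspg4 or Itga8, with no Myh11 and with at most 1 of Acta2, Tagln and Cnn1. Counts were summed per mouse and class in mice 1, 2 and 3 and tested with edgeR's quasi-likelihood test, with the mouse as a block. Of 7136 genes tested, 229 were higher in smooth muscle cells (3.21%) and 222 were lower (3.11%) at an adjusted p under 0.05, and 1276 had an unadjusted p under 0.05. The classes differed in depth: the median cell had 9085.5, 9987 and 8370 UMIs in smooth muscle, against 3244, 4883 and 3711.5 UMIs in the 13, 11 and 78 pericyte and mesangial cells. The 10 endothelial markers summed to 236 to 259 CPM in smooth muscle cells, against 515 to 781 CPM in pericyte and mesangial cells. The proximal tubule markers summed to 103 to 259 CPM in smooth muscle cells, against 289.5 to 481 CPM in pericyte and mesangial cells, and the neutrophil markers to 49.3 to 378 CPM in smooth muscle cells, against 114 to 595 CPM in pericyte and mesangial cells. The part of these markers in the results was not tested. With every cell thinned to 1000 UMIs, 1388 genes were tested and 130 were higher and 76 lower. Leaving out mouse 1 gave 66 higher and 110 lower, leaving out mouse 2 gave 31 and 83, and leaving out mouse 3 gave 385 and 274. Without the mouse block there were 48 higher and 65 lower.

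The contractile apparatus, the actin and myosin machinery that shortens the cell, was higher in smooth muscle cells at 14 of 18 tested genes and lower at none, with a median log2 fold change of 2.30 beside 0.07 over all genes tested. Since Myh11 divided the classes, genes that vary with it were drawn along, so this count describes the split and supports nothing further. Myl9 was at 2399, 2867 and 856 CPM in smooth muscle cells and 89.6, 209 and 96.8 CPM in pericyte and mesangial cells (log2 fold change 3.89, SE 0.47, adjusted p = 2.84e-04). Tpm2, a tropomyosin that lies along actin, was at 1335, 1579 and 647 CPM in smooth muscle cells and 22.4, 48.3 and 55.8 CPM in pericyte and mesangial cells (log2 fold change 4.49, SE 0.52, adjusted p = 1.96e-04). In both genes every smooth muscle value lay above every pericyte and mesangial value. Lmod1 reached 767, 847 and 417 CPM in smooth muscle cells against 0, 0 and 11.7 CPM in pericyte and mesangial cells (log2 fold change 6.09, SE 0.62, adjusted p = 9.59e-05). Ldb3 was at 274, 209 and 48.5 CPM in smooth muscle cells, against 1 UMI in all pericyte and mesangial cells, a ratio of 37.1 (exact 95% interval 6.64 to 1470). Not every contractile gene was called: Cald1 was at 4232, 4071 and 2906 CPM in smooth muscle cells and 2576, 2831 and 1423 CPM in pericyte and mesangial cells (adjusted p = 0.198), and Vcl, whose promoter also holds the box, at 395, 403 and 274 CPM in smooth muscle cells and 538, 579 and 232 CPM in pericyte and mesangial cells (adjusted p = 0.954). Mylk and Myl6 were called at 2.21 and 2.39, but not without mouse 2 (adjusted p = 0.123 and 0.0759), while Myl9, Tpm2, Lmod1 and Ldb3 were called without each mouse in turn. Lmod1 and Ldb3 passed the low-count filter through smooth muscle cells alone, which set their direction. The list's calls numbered 10 without mouse 1, 5 without mouse 2, 14 without mouse 3 and 8 without the mouse block.

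**Figure D2:**
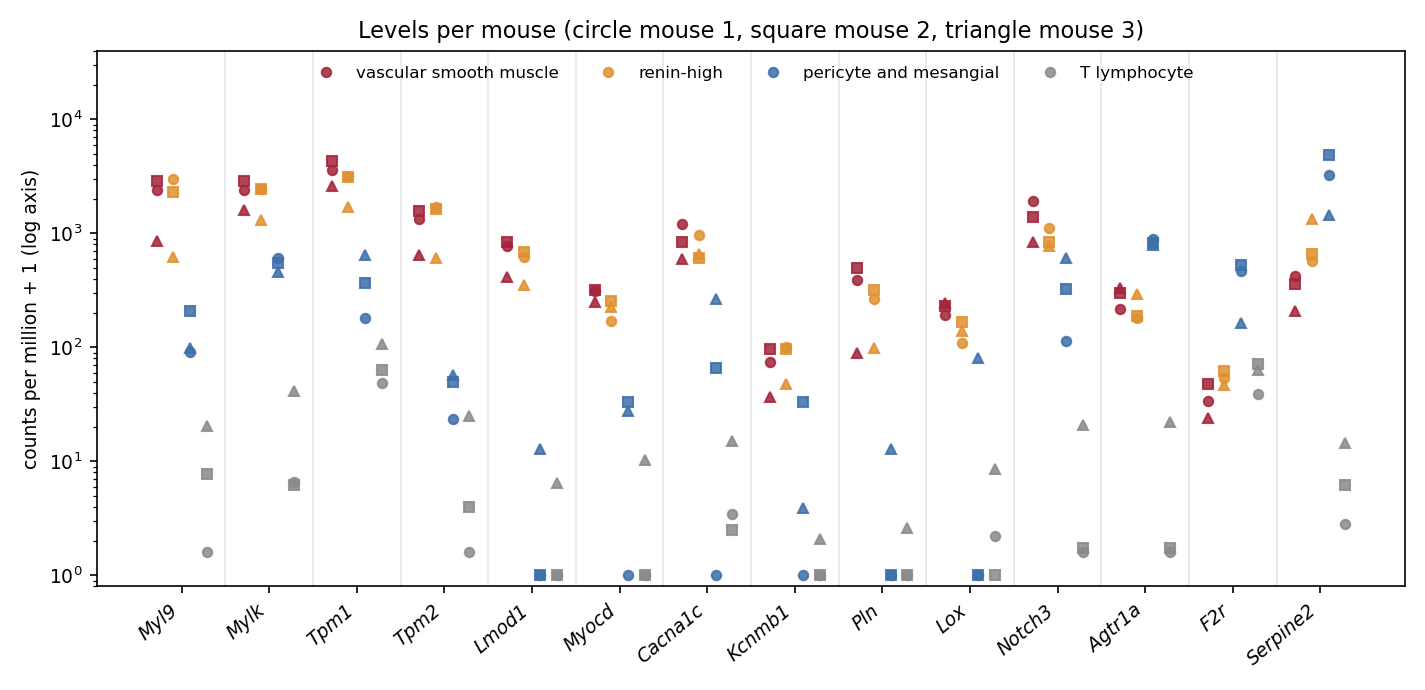
Levels of 14 genes (CPM + 1, log axis) in smooth muscle, renin-high, pericyte and mesangial cells and T lymphocytes, 1 marker per mouse for mice 1, 2 and 3. The contractile genes Myl9, Tpm2 and Lmod1 were far higher in smooth muscle than in pericyte and mesangial cells, at levels that overlapped those of renin-high cells, and near 0 in T lymphocytes, while Serpine2, F2r and Agtr1a were lower in smooth muscle than in pericyte and mesangial cells.

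The genes that regulate contraction followed in part. Myocd, the coactivator myocardin, was at 312, 316 and 251 CPM in smooth muscle cells and 0, 32.2 and 26.4 CPM in pericyte and mesangial cells (log2 fold change 3.64, SE 0.48, adjusted p = 6.81e-04), and its call held without each mouse in turn. Mef2c was also called, at 1398, 1036 and 319.7 CPM in smooth muscle cells and 134, 257 and 220.1 CPM in pericyte and mesangial cells (log2 fold change 1.93, SE 0.51, adjusted p = 0.0423), but not without mouse 1 (adjusted p = 0.241) or mouse 2 (adjusted p = 0.389). These were 2 higher and 0 lower of 6 tested regulators, and the higher calls numbered 1 without mouse 1, 1 without mouse 2, 4 without mouse 3 and 1 without the mouse block. The serum response factor gene Srf was at 15.2, 21.7 and 18.8 CPM in smooth muscle cells and was too sparse in pericyte and mesangial cells to be tested.

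Ion channels and calcium pumps were higher in smooth muscle cells at 8 of 16 tested genes and lower at none, with a median log2 fold change of 2.33 (1.91 with Cacna1h, which had no UMI in pericyte and mesangial cells, at its bound). Pln, phospholamban, the brake on the reticular calcium pump, was at 388, 498 and 88.1 CPM in smooth muscle cells and 0, 0 and 11.7 CPM in pericyte and mesangial cells (log2 fold change 4.46, SE 0.66, adjusted p = 0.00123). Its call held without each mouse in turn. Cacna1c, the pore of the L-type calcium channel, was at 1201, 847 and 595 CPM in smooth muscle cells against 0, 64.3 and 267 CPM in pericyte and mesangial cells (log2 fold change 2.96, SE 0.74, adjusted p = 0.0421). The pericyte and mesangial value in mouse 3 was the nearest to the smooth muscle values, but the groups did not overlap. Kcnma1, the pore of the large-conductance potassium channel, had 50.7, 48.4 and 45.6 CPM in smooth muscle cells and 1 UMI in all pericyte and mesangial cells, a ratio of 20.7 (exact 95% interval 3.68 to 820). Its partner Kcnmb1 had 73.5, 95.6 and 36.0 CPM in smooth muscle cells and 3 UMIs in pericyte and mesangial cells, a ratio of 6.85 (2.32 to 33.4), and was not called without mouse 3 (adjusted p = 0.117). The potassium channels Kcna5 and Kcnk3 and the calcium pumps Atp2a2 and Atp2b4 were called too, at log2 fold changes of 2.65, 2.35, 1.40 and 2.30. All these except Pln lost the call without mouse 1 and without mouse 2. The ATP-sensitive channel subunits Kcnj8 and Abcc9 were not called (log2 fold changes -2.27 and -1.18). Pln, Kcnma1 and Cacna1h passed the low-count filter through smooth muscle cells alone, which set their direction. The list's higher calls numbered 1 without mouse 1, 1 without mouse 2, 10 without mouse 3 and 2 without the mouse block.

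Receptors for vasoconstrictors were split between the classes, with 2 higher and 2 lower in smooth muscle cells among 10 tested. Agtr1a, the angiotensin II type 1a receptor, was at 215, 298 and 330.2 CPM in smooth muscle cells and 896, 820.3 and 786 CPM in pericyte and mesangial cells (log2 fold change -1.42, SE 0.35, adjusted p = 0.0285). All 3 pericyte and mesangial values were above all smooth muscle values, although the call was lost without mouse 1 (adjusted p = 0.121) or mouse 2 (adjusted p = 0.273). F2r, the thrombin receptor PAR1, was at 32.9, 47.1 and 23.2 CPM in smooth muscle cells and 470.5, 531 and 164 CPM in pericyte and mesangial cells (log2 fold change -3.16, SE 0.34, adjusted p = 1.22e-04), and this call held without each mouse in turn. In the other direction, P2rx1, the ATP-gated channel of sympathetic vasoconstriction, was at 215, 209 and 41.6 CPM in smooth muscle cells and 22.4, 32.2 and 5.87 CPM in pericyte and mesangial cells (log2 fold change 3.02, SE 0.51, adjusted p = 0.00304, but 0.0690 without mouse 2). Adra1a, the alpha-1A adrenergic receptor, was at 134, 80.3 and 26.9 CPM in smooth muscle cells and had no UMI in pericyte and mesangial cells, so it was at least 6.04-fold higher by a floor of 3 UMIs over the class. Adra1a passed the low-count filter through smooth muscle cells alone, which set its direction, so its call supports nothing further. It was not called without mouse 1 (adjusted p = 0.0756) and was too sparse to be tested without mouse 2. The endothelin receptors did not pass: Ednra was at 446, 459 and 1244 CPM in smooth muscle cells and 134, 161 and 1229.6 CPM in pericyte and mesangial cells (adjusted p = 0.235), and Ednrb at 759.9, 586 and 1977 CPM in smooth muscle cells and 67.2, 64.3 and 1852 CPM in pericyte and mesangial cells (adjusted p = 0.101). Both were highest in mouse 3 in each class. The list's higher calls numbered 1 without mouse 1, 0 without mouse 2, 4 without mouse 3 and 0 without the mouse block, and its lower calls 1, 1, 2 and 1 in the same settings.

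In the relaxing arm of the pathway, 1 gene was higher and 2 were lower of 15 tested, with a median log2 fold change of 0.18. Over all genes tested, 3.21% were higher and 3.11% lower. Prkg1 was at 3706, 2910.2 and 1706 CPM in smooth muscle cells and 4010.2, 2187 and 2122 CPM in pericyte and mesangial cells, and those ranges overlapped (adjusted p = 0.912). The subunits of the nitric oxide receptor, Gucy1a1 and Gucy1b1, had log2 fold changes of 0.18 and 0.10 with SEs of 0.35 and 0.35. The phosphodiesterases Pde3a and Pde5a, which degrade cyclic nucleotides, had 0.49 and -0.09 with SEs of 0.37 and 0.33. None of these was called. Npr3, the natriuretic peptide clearance receptor, was lower at 5.07, 10.2 and 0.594 CPM in smooth muscle cells against 448, 450.3 and 44.0 CPM in pericyte and mesangial cells (log2 fold change -5.68, SE 0.45, adjusted p = 1.99e-05), with no overlap and with the call held without each mouse in turn. Ptger4, a prostaglandin E2 receptor, was lower too (log2 fold change -3.52, SE 0.69, adjusted p = 0.00773), but not without mouse 1 (adjusted p = 0.0583) or mouse 2 (adjusted p = 0.110). The adenylate cyclase Adcy5 was higher, with 264 UMIs in smooth muscle cells and 1 in pericyte and mesangial cells, a ratio of 19.0 (3.38 to 752), and it was not called without mouse 1 (adjusted p = 0.0956). It passed the low-count filter through smooth muscle cells alone, which set its direction.

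RhoA signalling keeps smooth muscle contracted by inhibiting myosin phosphatase. In this list 4 genes were higher and 1 lower of 12 tested. The phosphatase's targeting subunits were among the higher ones: Ppp1r12b was at 559.8, 585 and 282 CPM in smooth muscle cells and 22.4, 80.4 and 85.1 CPM in pericyte and mesangial cells (log2 fold change 2.65, SE 0.46, adjusted p = 0.00362), and Ppp1r12a had a log2 fold change of 1.79. Its inhibitor Ppp1r14a and the G protein regulator Rgs4 had log2 fold changes of 2.94 and 2.10. Rgs2, which also damps G protein signalling, was lower at 342, 305 and 395 CPM in smooth muscle cells against 851, 1367 and 916 CPM in pericyte and mesangial cells (log2 fold change -1.41, SE 0.37, adjusted p = 0.0390). Rhoa, Rock1 and Rock2 themselves were not called, with log2 fold changes of 0.49, 1.23 and -0.12. None of the 5 was called without mouse 2, where Ppp1r14a was too sparse to be tested, and Ppp1r12b was the only one that held without mouse 1.

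Genes of the arterial wall's elastic fibres and matrix were higher at 5 of 19 tested and lower at none, with a median of 0.96. Eln, tropoelastin, was at 349.5, 116 and 33.7 CPM in smooth muscle cells and had no UMI in pericyte and mesangial cells, at least 9.56-fold higher. Lox, which cross-links elastin and collagen, was at 193, 231 and 242 CPM in smooth muscle cells and 0, 0 and 79.2 CPM in pericyte and mesangial cells (log2 fold change 2.56, SE 0.57, adjusted p = 0.0168), but it was not called without mouse 1 (adjusted p = 0.118) or mouse 2 (adjusted p = 0.164). Fn1, fibronectin, was at 76.0, 70.1 and 90.5 CPM in smooth muscle cells, against 1 UMI in pericyte and mesangial cells, a ratio of 38.9 (exact 95% interval 6.96 to 1541). Col18a1, a basement membrane collagen, was at 426, 347 and 259 CPM in smooth muscle cells and 0, 16.1 and 64.6 CPM in pericyte and mesangial cells (log2 fold change 3.03, SE 0.54, adjusted p = 0.00413, 0.0967 without mouse 2). The proteoglycan Ogn had 178 UMIs in smooth muscle cells and none in pericyte and mesangial cells, at least 4.26-fold higher, and was too sparse to be tested without mouse 1 or 2. The basement membrane collagens Col4a1 and Col4a2 went the other way without a call (log2 fold changes -0.68 and -0.69). The list's calls numbered 3 without mouse 1, 2 without mouse 2, 8 without mouse 3 and 2 without the mouse block. Eln and Fn1 were called without each mouse in turn. However, Eln, Ogn and Fn1 passed the low-count filter through smooth muscle cells alone, which set their direction.

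Notch signalling, through which endothelial ligands keep mural cells mature, had 3 genes higher and none lower of 8 tested. Notch3, the main receptor of arterial smooth muscle, was at 1907, 1386 and 843 CPM in smooth muscle cells and 112, 322 and 605 CPM in pericyte and mesangial cells. Every smooth muscle value was above every pericyte and mesangial value, yet the difference missed the threshold (log2 fold change 2.10, SE 0.58, adjusted p = 0.0519). The ligand Jag1, the receptor Notch2 and the feedback inhibitor Nrarp were called at log2 fold changes of 1.96, 1.85 and 3.05. Calls in this list numbered 0 without mouse 1, 1 without mouse 2, 4 without mouse 3 and 0 without the mouse block. In the TGF-beta and BMP list, 4 of 16 tested genes were higher and 2 lower. The BMP-responsive genes Id1 and Id2 and the ligands Tgfb2 and Tgfb3 were higher. Id1 was at 567, 724 and 808 CPM in smooth muscle cells and 22.4, 80.4 and 226 CPM in pericyte and mesangial cells (log2 fold change 2.79, SE 0.48, adjusted p = 0.00353, 0.102 without mouse 2). Eng, the coreceptor endoglin, was lower at 22.8, 26.8 and 30.5 CPM in smooth muscle cells against 560.1, 418 and 132 CPM in pericyte and mesangial cells (log2 fold change -3.19, SE 0.44, adjusted p = 8.23e-04), held without each mouse in turn. Endothelial cells had 1356, 1271 and 472 CPM of Eng, and the part of the higher endothelial marker sum of the pericyte and mesangial cells in this difference was not tested. The ligand Bmp4 was lower as well (log2 fold change -5.50, SE 0.94, adjusted p = 0.00334), but too sparse to be tested without mouse 2 or 3. The higher calls of this list numbered 1 without mouse 1, 0 without mouse 2, 4 without mouse 3 and 0 without the mouse block.

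Of 12 tested genes known from pericytes or mesangium, 4 were lower in smooth muscle cells and 3 higher. The lower ones were Serpine2, a protease inhibitor, Art3, the heparin-binding growth factor Ptn and the transcription factor Gata3. Serpine2 was at 423, 358 and 209 CPM in smooth muscle cells and 3248, 4889 and 1456 CPM in pericyte and mesangial cells (log2 fold change -3.01, SE 0.41, adjusted p = 7.79e-04). Art3 was at 17.7, 16.6 and 33.5 CPM in smooth muscle cells and 246, 241 and 223 CPM in pericyte and mesangial cells (log2 fold change -3.13, SE 0.38, adjusted p = 3.44e-04). Ptn was at 2.53, 0 and 0.990 CPM in smooth muscle cells and 246, 402 and 49.9 CPM in pericyte and mesangial cells (log2 fold change -6.54, SE 0.63, adjusted p = 8.38e-05). These 3 did not overlap and were called without each mouse in turn, while Gata3 (log2 fold change -1.49) was lost without mouse 1 or mouse 2. The higher ones were the adhesion molecule Mcam and the mitochondrial genes Ndufa4l2 and Cox4i2, at log2 fold changes of 1.95, 1.77 and 2.34, and none of these held without mouse 2. Nt5e, the ectoenzyme that makes extracellular adenosine, was at 0, 0 and 0.990 CPM in smooth muscle cells and 426, 627 and 88.0 CPM in pericyte and mesangial cells (log2 fold change -7.57, SE 0.62, adjusted p = 2.26e-05). Entpd1, which acts upstream of it on ATP, was higher at 337, 266 and 139 CPM in smooth muscle cells against 67.2, 16.1 and 41.1 CPM in pericyte and mesangial cells (log2 fold change 2.42, SE 0.44, adjusted p = 0.00451, 0.0617 without mouse 1 and 0.0850 without mouse 2).

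Immediate early genes, which switch on within minutes of a stimulus, were higher in smooth muscle cells at 4 of 16 tested and lower at none, with a median of 1.18. Fos was at 4075, 2219.6 and 2800.1 CPM in smooth muscle cells and 896, 1255 and 763 CPM in pericyte and mesangial cells (log2 fold change 1.78, SE 0.42, adjusted p = 0.0225), with no overlap. Egr1, Atf3 and Klf2 had log2 fold changes of 2.05, 1.78 and 1.72. The list's calls numbered 1 without mouse 1, 0 without mouse 2, 6 without mouse 3 and 0 without the mouse block. Among 14 tested heat shock genes 3 were higher: Hspb1 at 968, 1734 and 2825 CPM in smooth muscle cells and 22.4, 209 and 508 CPM in pericyte and mesangial cells (log2 fold change 3.25, SE 0.50, adjusted p = 0.00161, 0.0596 without mouse 2), Cryab (log2 fold change 3.09, SE 0.46, adjusted p = 0.00143), which held without each mouse in turn, and Hsp90aa1 (log2 fold change 1.35), which was lost without each. Both small heat shock proteins are abundant in muscle. Ndrg1 was the 1 hypoxia gene of 10 tested that was called, and it was lower (log2 fold change -2.07, SE 0.35, adjusted p = 0.00326, 0.101 without mouse 2). No gene of the oxidant (14 tested), inflammatory (11), interferon and antigen presentation (18), p53 and cell death (10) or cell cycle (3) lists was called by edgeR. Their genes with an unadjusted p under 0.05 numbered 2, 2, 1, 4 and 2 in the same order of lists, and DESeq2 called 1 inflammatory and 1 cell cycle gene. Without mouse 3, edgeR called 2 oxidant, 1 inflammatory, 3 p53 and 1 cell cycle gene higher and 1 interferon gene lower.

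**Figure D3:**
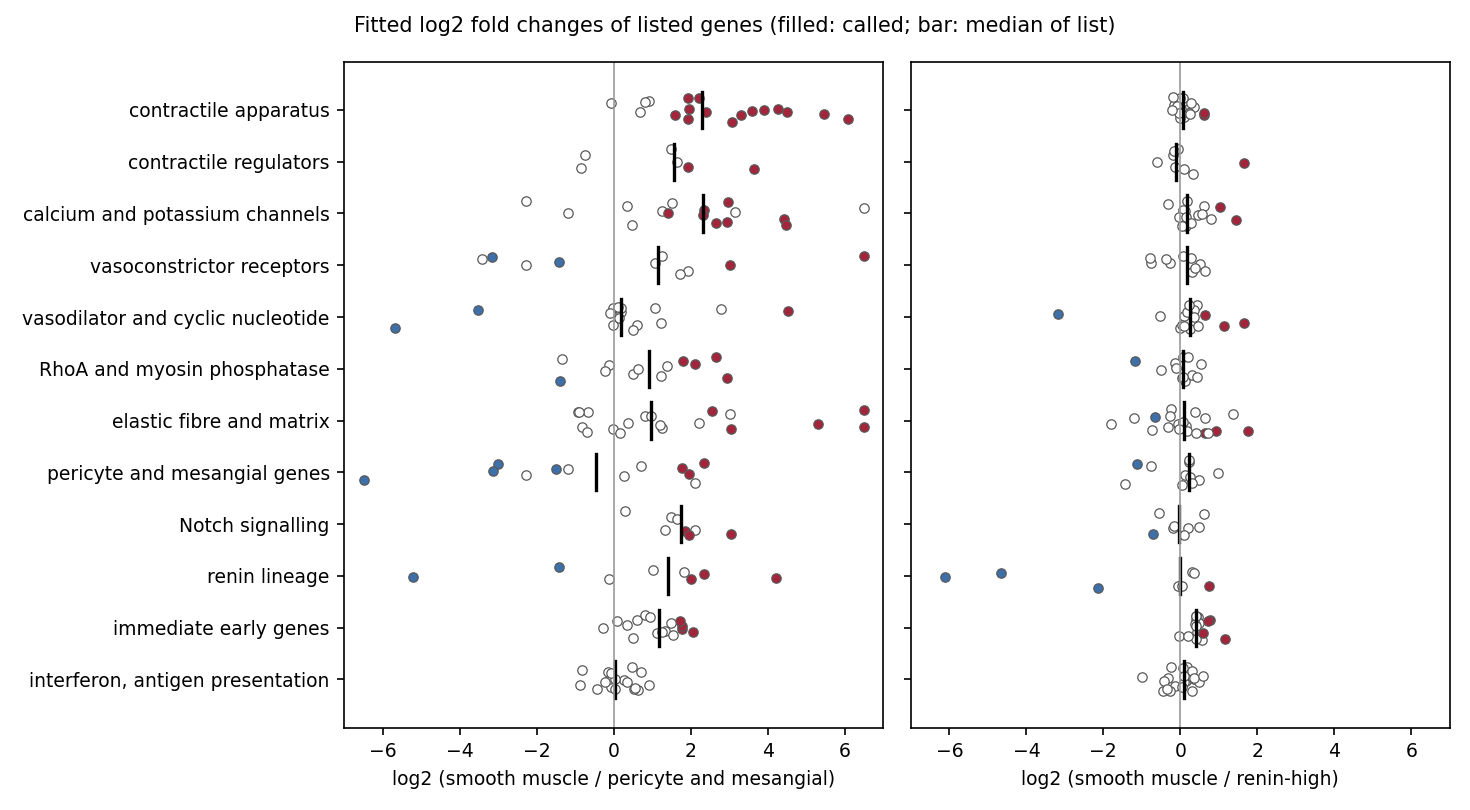
Fitted log2 fold changes of the genes of 12 lists, smooth muscle against pericyte and mesangial cells (left) and against renin-high cells (right), with called genes filled and the list median as a black bar. Contractile and channel genes lay to the right against pericyte and mesangial cells (medians 2.30 and 2.33) and near 0 against renin-high cells (0.08 and 0.19), and points past 6.5 are drawn at 6.5, where genes without UMIs in 1 class have values that depend on the prior count.

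Among called genes of at least 50 CPM that moved the same way in each mouse, the 10 with the highest fold changes all lacked any UMI in the pericyte and mesangial cells of mice 1, 2 and 3, so the 9 named here are given as lower bounds. Eln was at least 9.56-fold higher, Ptgis, the prostacyclin synthase of vessel walls, at least 10.0-fold, and Hpse2, a heparanase homologue, at least 8.79-fold. Sspn, sarcospan of the dystrophin complex, was at least 7.02-fold higher, and Xirp1, an actin-binding protein of muscle, at least 7.93-fold. Mamdc2, Grip2, Rasl10b and Wfdc1 had bounds of 7.07-, 7.35-, 7.59- and 6.37-fold. Ptgis had 155, 172 and 44.0 CPM in smooth muscle cells of mice 1, 2 and 3, and all 10 were lowest in mouse 3. Prkca, protein kinase C alpha, was the most abundant of the 10 lowest, at 53.2, 30.6 and 21.2 CPM in smooth muscle cells and 7841, 3056 and 1194 CPM in pericyte and mesangial cells (log2 fold change -6.36, SE 0.49, adjusted p = 1.99e-05). The splicing factor gene Mbnl3 was at 2.53, 3.82 and 1.39 CPM in smooth muscle cells and 1165, 418 and 58.7 CPM in pericyte and mesangial cells (log2 fold change -6.42, SE 0.50, adjusted p = 1.99e-05). Cxcl13, a chemokine, was at 0, 0 and 1.58 CPM in smooth muscle cells and 67.2, 80.4 and 1024 CPM in pericyte and mesangial cells (log2 fold change -9.17, SE 0.62, adjusted p = 1.32e-05), and it was highest in mouse 3. Add2, an adducin of the membrane skeleton, had no UMI in smooth muscle cells and was at least 172-fold lower. Frmd3 was at least 97.4-fold lower by the same floor, and Grm7 (inverse ratio 292, interval 47.0 to 12086) and Mrc1 (111, 33.8 to 578) had 1 and 3 UMIs in smooth muscle cells. Nt5e, Ptn and Hs3st3b1 completed the 10. Prkca, Mbnl3, Add2, Nt5e, Ptn, Hs3st3b1, Eln and Ptgis were called without each mouse in turn. The genes without a UMI in 1 class, and Mbnl3, Cxcl13, Nt5e, Ptn, Grm7 and Mrc1, passed the low-count filter through the other class alone. Their direction was thus set in advance, and their calls support nothing further. Xirp1, Sspn and Rasl10b were not called without mouse 2, nor Wfdc1 without mouse 1. The other genes named here were too sparse to be tested in at least 1 of those fits.

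Smooth muscle cells were next set against renin-high cells, which had at least 30 Ren1 UMIs per 10000 and met the same exclusions. This comparison was added after the numbers of cells were known. Ren1 was at 666, 389.9 and 236 CPM in smooth muscle cells and 78173, 80556 and 44008 CPM in renin-high cells, a split that the rule made, and genes that travel with Ren1 are drawn along by it. Of 8889 genes tested in mice 1, 2 and 3, 209 were higher in smooth muscle cells (2.35%) and 156 lower (1.75%), and 1320 had an unadjusted p under 0.05. Depth was alike, with a median of 9085.5, 9987 and 8370 UMIs per smooth muscle cell and 9048, 10973 and 9149 UMIs per renin-high cell. Myh11 was found in 171 of all 223 renin-high cells. Without the mouse block the test called 0 genes higher and 3 lower, and without the cells that carried 3 or more markers of another class it called 89 higher and 62 lower. Leaving out mouse 1 gave 122 higher and 103 lower, leaving out mouse 2 gave 94 and 117, and leaving out mouse 3 gave 308 and 359.

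Most contractile genes were not called between these classes, where 2.35% of all genes tested were higher and 1.75% lower. Acta2 was at 6889, 8661 and 8607 CPM in smooth muscle cells and 9200.2, 8854 and 7047 CPM in renin-high cells, with overlapping values. Myl9 was at 2399, 2867 and 856 CPM in smooth muscle cells and 2991, 2298 and 615 CPM in renin-high cells (adjusted p = 0.890), and Mylk had a log2 fold change of 0.11 with an SE of 0.15. Of 18 tested contractile genes 2 were called, the intermediate filament gene Des (log2 fold change 0.60) and Pdlim3 (0.61), both higher, and Des was lost without each mouse, Pdlim3 without mouse 1 or 2, and both without the cells that carried markers of other classes. Myocd had a log2 fold change of 0.33 (SE 0.17). The 10 tested vasoconstrictor receptors had no call, with 1 when mouse 2 was left out, none by DESeq2 and 4 at an unadjusted p under 0.05. Agtr1a was at 215, 298 and 330.2 CPM in smooth muscle cells and 179, 189 and 295 CPM in renin-high cells, and Ednra at 446, 459 and 1244 CPM in smooth muscle cells and 337, 334 and 906 CPM in renin-high cells. A gene that misses the threshold is not shown to be equal in both.

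The renin programme, on which the split was made, was lower in smooth muscle cells. Akr1b7, an aldo-keto reductase that marks renin cells, was at 175, 103 and 339.9 CPM in smooth muscle cells and 5611, 2750.4 and 6123 CPM in renin-high cells (log2 fold change -4.66, SE 0.20, adjusted p = 1.49e-11). Gja5, the connexin 40 of renin cells and endothelium, was at 0, 0 and 1.98 CPM in smooth muscle cells and 122, 97.9 and 106 CPM in renin-high cells (log2 fold change -6.10, SE 0.37, adjusted p = 3.58e-09). Ctsb, the lysosomal protease cathepsin B, was at 210.2, 299 and 436 CPM in smooth muscle cells and 1363, 1592 and 1046 CPM in renin-high cells (log2 fold change -2.14, SE 0.26, adjusted p = 9.37e-04). The classes did not overlap for any of these 3 genes, and each call held without each mouse in turn. They were the 3 lower genes of the 8 tested in the renin lineage list, and the connexin Gja4 was the 1 higher gene (log2 fold change 0.74, SE 0.17, adjusted p = 0.0141), lost without mouse 1 or 2. Without the mouse block only Gja5 kept its call (adjusted p = 0.0242).

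Some receptor and signalling genes were lower in smooth muscle cells too. Adora1, the adenosine A1 receptor, was at 0, 1.27 and 3.96 CPM in smooth muscle cells and 33.1, 15.2 and 33.9 CPM in renin-high cells (log2 fold change -3.36, SE 0.47, adjusted p = 1.51e-04), and was too sparse to be tested without mouse 3. Npr3 was at 5.07, 10.2 and 0.594 CPM in smooth muscle cells and 16.5, 40.5 and 20.02 CPM in renin-high cells (log2 fold change -3.17, SE 0.55, adjusted p = 0.00154), likewise untested without mouse 3. Rgs2 was at 342, 305 and 395 CPM in smooth muscle cells and 734, 692 and 807 CPM in renin-high cells (log2 fold change -1.17, SE 0.16, adjusted p = 1.29e-04), with no overlap and with the call held without each mouse in turn. Gata3 was lower at 124, 86.6 and 51.7 CPM in smooth muscle cells against 152, 184 and 146 CPM in renin-high cells (log2 fold change -1.12, SE 0.21, adjusted p = 0.00241). Smaller lower calls were the receptor gene Notch2, the collagen gene Col18a1, the matricellular Ccn2 and the growth factor Igf1, at log2 fold changes of -0.70, -0.66, -0.58 and -1.75. Notch2, Col18a1 and Ccn2 lost the call without mouse 2, Ccn2 also without mouse 1, and Igf1 was too sparse to be tested without mouse 3.

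**Figure D4:**
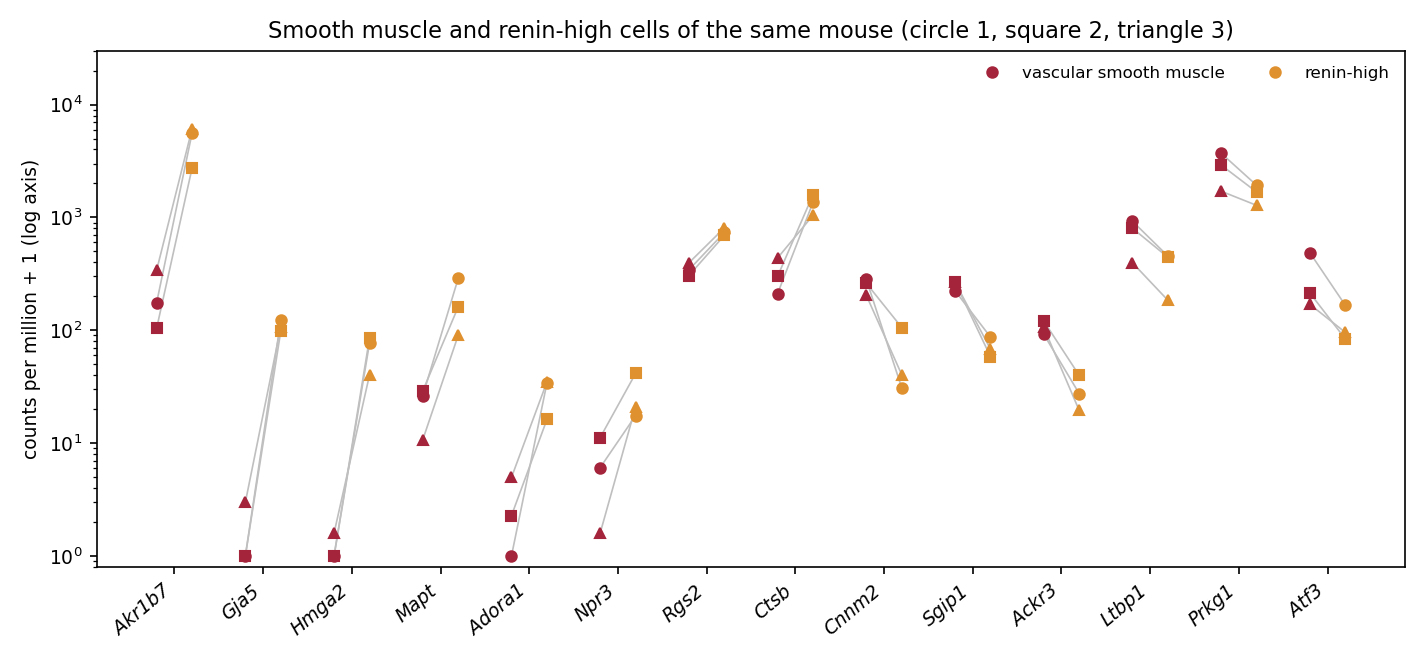
Levels of 14 genes (CPM + 1, log axis) in smooth muscle cells and renin-high cells of mice 1, 2 and 3, with lines joining the classes of a mouse. Akr1b7, Gja5, Hmga2, Mapt, Adora1, Npr3, Rgs2 and Ctsb were lower in smooth muscle cells in each mouse, and Cnnm2, Sgip1, Ackr3, Ltbp1, Prkg1 and Atf3 were higher.

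By the same rule, the 10 genes with the lowest fold changes were Hmga2, Gja5, Ntng1, Mannr, Akr1b7, Kirrel3, Sfrp2, Mapt, the unnamed ENSMUSG00000121733 and Plpp5. Hmga2, a chromatin protein, had 3 UMIs in smooth muscle cells and 124 in renin-high cells, an inverse ratio of 117 (exact 95% interval 39.2 to 577). Mapt, the microtubule protein tau, was at 25.3, 28.0 and 9.70 CPM in smooth muscle cells and 288, 160.4 and 89.3 CPM in renin-high cells (log2 fold change -3.10, SE 0.23, adjusted p = 4.28e-08). Ntng1, a netrin-related adhesion gene, was at 7.60, 0 and 4.95 CPM in smooth muscle cells and 261, 174 and 143 CPM in renin-high cells (log2 fold change -5.25, SE 0.32, adjusted p = 4.28e-08). Each smooth muscle value of these genes lay below every renin-high value, and all 10 were called without each mouse in turn.

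The 10 highest were Atp1b1, Cnnm2, Bmp6, Ackr3, Sgip1, Mgat4a, Aspn, Myof, Il34 and Tmeff2. Sgip1, an endocytic adaptor, was at 223, 266 and 266 CPM in smooth muscle cells and 86.0, 57.4 and 67.0 CPM in renin-high cells (log2 fold change 1.85, SE 0.19, adjusted p = 5.35e-06). Cnnm2, a magnesium transport protein, was at 281, 259.9 and 203 CPM in smooth muscle cells and 29.8, 105 and 39.3 CPM in renin-high cells (log2 fold change 2.05, SE 0.27, adjusted p = 9.01e-04). Ackr3, a scavenging receptor for CXCL12, was at 91.2, 119.8 and 105 CPM in smooth muscle cells and 26.5, 38.8 and 18.5 CPM in renin-high cells (log2 fold change 1.98, SE 0.25, adjusted p = 4.54e-05). The classes did not overlap for these 3 genes. Atp1b1, the sodium pump's beta subunit, was at 20.3, 101 and 45.2 CPM in smooth muscle cells and 19.8, 8.44 and 9.24 CPM in renin-high cells (log2 fold change 2.28, SE 0.41, adjusted p = 0.00456), where mouse 1 gave almost no difference. All 10 were called without each mouse in turn, except Aspn without mouse 1 (adjusted p = 0.0852). Atp1b1 was not called when members needed 3 of the markers (adjusted p = 0.196) or without the cells of highest UMI totals (log2 fold change 1.05, adjusted p = 0.287), nor was Aspn in the last setting (adjusted p = 0.140).

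In the signalling lists, 3 vasodilator and cyclic nucleotide genes of 16 tested were higher in smooth muscle cells and 1, Npr3, was lower. Prkg1 was at 3706, 2910.2 and 1706 CPM in smooth muscle cells and 1925, 1678 and 1278 CPM in renin-high cells (log2 fold change 0.65, SE 0.16, adjusted p = 0.0205). It was higher in each mouse but lost the call without mouse 1 (adjusted p = 0.191) or mouse 2 (adjusted p = 0.271). Pde5a, which breaks down cyclic GMP, was at 208, 247 and 46.5 CPM in smooth muscle cells and 79.4, 144 and 14.6 CPM in renin-high cells (log2 fold change 1.13, SE 0.21, adjusted p = 0.00246), and its call held without each mouse in turn. Of the adenosine and endothelin list, Adora2a, the relaxing adenosine receptor, had a log2 fold change of 1.67 and lost the call without mouse 1 or 2. Ece1, which cleaves pro-endothelin to endothelin, was at 38.0, 31.9 and 72.9 CPM in smooth muscle cells and 9.92, 16.9 and 16.2 CPM in renin-high cells (log2 fold change 1.74, SE 0.31, adjusted p = 0.00183, 0.147 without mouse 3). Ltbp1, which stores latent TGF-beta in the matrix, was at 925, 801 and 395 CPM in smooth muscle cells and 453, 442 and 183 CPM in renin-high cells (log2 fold change 0.93, SE 0.16, adjusted p = 0.00121), with the call held without each mouse in turn. The channel gene Kcnma1 was higher at a log2 fold change of 1.44 and was not called without mouse 3.

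Immediate early genes were higher in smooth muscle cells at 4 of 17 tested, with a median log2 fold change of 0.42 beside 0.01 over all genes tested. Atf3, a stress-induced transcription factor, was at 486, 213 and 169 CPM in smooth muscle cells and 165, 82.7 and 94.7 CPM in renin-high cells (log2 fold change 1.15, SE 0.18, adjusted p = 5.54e-04), and it was higher in each mouse and called without each. Fosb, Klf2 and Btg2 were called at 0.78, 0.71 and 0.58 and were lost without mouse 1 or 2. The list's calls numbered 1 without mouse 1, 1 without mouse 2, 7 without mouse 3 and 0 without the mouse block, and 1 without the cells that carried markers of other classes. Among 11 tested p53 and cell death genes, Trp53inp1, Phlda3 and Cdkn1a were higher (0.92, 1.04 and 0.61), with 0, 0 and 3 calls without mouse 1, 2 and 3. The 14 inflammatory and 21 interferon genes tested had no call by edgeR or DESeq2, with 5 and 1 genes at an unadjusted p under 0.05, and each list had 1 lower call when mouse 2 was left out.

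The remaining lists are given together. Of 8 tested renin lineage genes, 3 were higher in smooth muscle than in pericyte and mesangial cells and 2 lower. Over all genes tested in that comparison, 3.21% were higher and 3.11% lower. Crip1, a LIM protein of muscle and renin cells, was at 1021, 861 and 491 CPM in smooth muscle cells and 22.4, 32.2 and 47.0 CPM in pericyte and mesangial cells (log2 fold change 4.21, SE 0.49, adjusted p = 2.33e-04), and its call held without each mouse in turn. Akr1b7 was also higher (log2 fold change 1.99) and Gja5 lower (-5.21), while Cox4i2 and Agtr1a are given above. Against pericyte and mesangial cells the growth factor list of 12 tested genes had Pdgfd higher (1.30) and Igfbp5 lower (-1.55), and Ccn1, a matricellular gene of the synthetic list, was higher (1.95). Without mouse 1 none of Akr1b7, Pdgfd, Igfbp5 and Ccn1 was called and Gja5 was too sparse to be tested. Without mouse 2 only Ccn1 of these 5 was called, and without mouse 3 Akr1b7, Gja5 and Igfbp5 were. Against renin-high cells the matrix list of 21 tested genes had Aspn, Ltbp1 and Lox (0.63) higher and Col18a1 lower. Of 15 oxidant genes Sod3 (0.83) and Mt1 (0.81) were higher, of 15 heat shock genes Cryab (0.74), of 16 growth factor genes Igf1r (0.81) and of 8 contractile regulators the transcription factor gene Gata6 (1.65). Lox was not called without mouse 1, 2 or 3, Sod3 without mouse 1 or 3, Gata6 without mouse 1, and Mt1, Cryab and Igf1r without mouse 2.

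Interstitial fibroblasts, the matrix-making cells of the kidney, numbered 3, 4, 28 and 12, and only mouse 3 had 10 or more of both classes, so the values stand without a test. Dcn, decorin, which with Lum and Pdgfra set that class, was at 0, 0 and 11.3 CPM in smooth muscle cells and 10148, 7679 and 5809 CPM in fibroblasts of mice 1, 2 and 3. Col1a2, a collagen I chain, was at 73.5, 127 and 86.9 CPM in smooth muscle cells and 2295, 2808 and 549 CPM in fibroblasts. Lmod1 and Myocd had no UMI in any of the 47 fibroblasts. Myl9 was at 2399, 2867 and 856 CPM in smooth muscle cells and 40.3, 57.3 and 13.4 CPM in fibroblasts of the same mice. Fibroblasts were higher for the collagen and lower for the contractile genes in each of these 3 mice.

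The 4 mice are 1 group, so differences between them are described and not tested. In smooth muscle cells, mouse 3 was at least 2-fold above both mouse 1 and mouse 2 for 437 of 4813 measured genes (9.08%) and at least 2-fold below both for 525 (10.9%). Of 16 measured interferon and antigen presentation genes 15 were that much higher in mouse 3. The list's summed level in smooth muscle cells was 691, 1101 and 12632 CPM in mice 1, 2 and 3. Isg15, a ubiquitin-like protein made in response to interferon, was at 12.7, 21.7 and 1425 CPM. Gbp2, a guanylate-binding protein that responds to interferon, was at 15.2, 33.1 and 1621 CPM, and B2m, the light chain of MHC class I, at 127, 245 and 1907 CPM. In each of these genes mice 1 and 2 were close and mouse 3 was far above them, while the 4 cells of mouse 4 gave 0, 0 and 77.8 CPM from 12850 UMIs.

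Of 10 measured inflammatory mediators 7 were at least 2-fold higher in mouse 3 than in both mice 1 and 2, and Il1b was lower. Over all measured genes the shares were 9.08% higher and 10.9% lower. Cxcl10, a chemokine for T lymphocytes, was at 0, 0 and 1458 CPM in smooth muscle cells of mice 1, 2 and 3. Cxcl1, a neutrophil chemokine, was at 0, 0 and 1225 CPM, and Nfkbia, an inhibitor and target of NF-kappaB, at 187, 234 and 1948 CPM. Il6 was at 25.3, 0 and 337 CPM and Ccl2 at 0, 0 and 127 CPM. Cxcl10, Cxcl1 and Ccl2 had no UMI in mice 1 and 2. The antioxidant gene Sod2 was at 137, 117 and 1779 CPM and the metallothionein gene Mt1 at 98.8, 262 and 1910.0 CPM, again highest in mouse 3 among these mice. Mt1 was at 8638 CPM in mouse 4.

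The same libraries differed in the same way outside smooth muscle. The interferon list summed to 691, 1101 and 12632 CPM in smooth muscle cells, 1002, 738 and 11358 CPM in renin-high cells, 1098, 2654 and 11298 CPM in pericyte and mesangial cells, 7585, 7369.6 and 19219 CPM in endothelial cells and 10813, 9550.4 and 19427 CPM in T lymphocytes of mice 1, 2 and 3. Each class was highest in mouse 3, and the mice 1 and 2 levels of the mural classes were the lowest. The inflammatory list summed to 909, 652 and 6250.2 CPM in smooth muscle cells, 1452, 1502 and 7988 CPM in endothelial cells and 11548, 5202 and 5057 CPM in T lymphocytes, and the T lymphocyte sum was highest in mouse 1. The T lymphocytes' neutrophil markers summed to 23944, 6287 and 1018 CPM in the same mice. By the 2-fold measure, mouse 3 was above mice 1 and 2 for 18 of 18 interferon genes in renin-high cells (8.50% of all measured genes, with 8.86% lower by that measure), 16 of 20 in endothelial cells (10.0%) and 11 of 21 in T lymphocytes (7.01%). What sets mouse 3 apart was not tested.

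**Figure D5:**
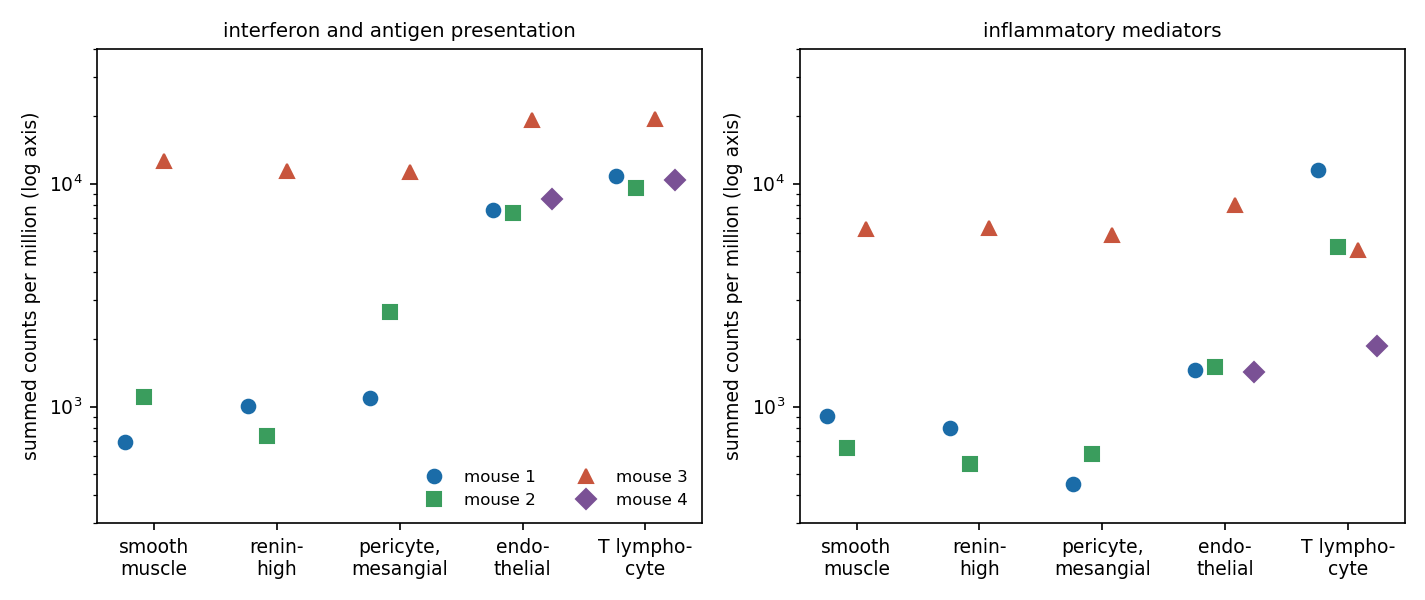
Summed level (CPM) of the interferon and antigen presentation list and of the inflammatory list in smooth muscle, renin-high, pericyte and mesangial, endothelial cells and T lymphocytes, 1 point per mouse for mice with 10 or more cells of the class. In smooth muscle cells the interferon sum was 12632 CPM in mouse 3, against 691 and 1101 CPM in mice 1 and 2.

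The summed contractile list went the other way in mouse 3. It was at 22312, 24079 and 14046 CPM in smooth muscle cells of mice 1, 2 and 3. Of its 18 measured genes 5 were at least 2-fold lower in mouse 3 than in both other mice: Myl9, Tpm2, Des, Ldb3 and Pdlim3. Over all 4813 measured genes that share was 10.9%. Of 14 measured channel genes 6 were lower by the same measure, among them Kcnmb1 and Pln. The constrictor receptors Adra1a, P2rx1 and Npy1r were lower and the endothelin receptors Ednra (446, 459 and 1244 CPM) and Ednrb (759.9, 586 and 1977 CPM) higher. Renin-high cells shared the direction, with a contractile sum of 23108, 21302 and 12054 CPM. CPM values are shares of a total, and the part of the higher interferon and inflammatory levels in the lower contractile values was not tested.

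The 12 cell cycle genes summed to 453, 489 and 293 CPM in smooth muscle cells of mice 1, 2 and 3 and 523, 688 and 864 CPM in T lymphocytes. Most of the smooth muscle sum was the D-type cyclin gene Ccnd2, at 324, 292 and 198 CPM. Genes of dividing cells were sparser: Mki67 was at 0, 0 and 3.17 CPM in smooth muscle cells of mice 1, 2 and 3 and 37.7, 69.6 and 36.8 CPM in T lymphocytes, and Ccna2 had no UMI in any member. Top2a was at 0, 1.27 and 0.990 CPM in smooth muscle cells and 20.4, 69.6 and 33.6 CPM in T lymphocytes. The markers of synthetic smooth muscle were mixed in level: Spp1, osteopontin, was at 93.7, 219 and 272 CPM in smooth muscle cells, Vim, vimentin, at 849, 1166 and 249 CPM, and Lum at 0, 0 and 0.396 CPM. Klf4, a repressor of contractile genes in cultured smooth muscle, was at 177, 148 and 154 CPM. Klf4 was called higher in smooth muscle cells against both other classes. The call was lost against pericyte and mesangial cells without mouse 1 or 2, and against renin-high cells without mouse 2 or 3.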

How the data were processed

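The authors deposited 1 sparse matrix of whole-number UMI counts per gene and cell barcode for each of 4 libraries, made with Cell Ranger 9.0.1 per the file headers; the submitters' processing notes also name Seurat 4.1.1, without its role. The genome build is not given in the sources used here. Each matrix listed 57132 genes, and gene symbols were taken from the files.

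Cells were kept and classed by UMI counts of marker genes, with no clustering and no doublet caller. The members and the gene lists were chosen with earlier results of these data known. Gene totals differed between each pair of libraries by more than sampling noise (lowest chi-square over its degrees of freedom 105), and all 4 were used as separate samples. That the libraries are separate mice rests on the labels. With the mouse as a block, p-values weigh the mean difference between classes against its variation among these libraries. That variation was estimated partly from all genes together.

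Counts were summed per mouse and class and tested in mice with at least 10 cells of both classes (mice 1, 2 and 3) with edgeR 4.0.16 in R 4.3.3 (quasi-likelihood test, TMM scaling, filterByExpr). The genes that define the classes were left out of the tests but kept in the library sizes. A call is a Benjamini-Hochberg adjusted p under 0.05 over all genes tested. Where classes are said not to overlap, this describes the values of 3 mice and was not tested. The share of all tested genes without overlap is not given here. Both classes came from the same mice, so the mouse was a block. SEs were taken from the fold change and its F statistic, and the fit was tested on simulated data. Of simulated log2 changes of size 2, 60.9% were recovered against pericyte and mesangial cells and 86.0% against renin-high cells. At size 3 these shares were 85.4% and 97.8%. False calls were 3.08% and 4% of calls. The simulation held no differences between mice, unlike these libraries. The planned test against fibroblasts had too few cells and was not run, and the comparison with renin-high cells was added after the cell numbers were seen.

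The text names the 10 highest and 10 lowest called genes with at least 50 CPM in the higher class and the same direction in each mouse (symbols of predicted genes skipped), the 15 genes of highest mean level, and genes of the 22 lists. A gene with no UMI in a class is given as a bound from a floor of 3 UMIs over the class. Such a gene passed the low-count filter through the other class alone, so its direction was set in advance. The same holds for a gene under the filter's limit in each library of 1 class. Examples are Fn1, Ldb3, Kcnma1 and Adcy5 against pericyte and mesangial cells, and Gja5, Hmga2, Ntng1, Adora1 and Npr3 against renin-high cells. Intervals are exact (Clopper-Pearson) at 95% and, like floors, cover counting error only. The alternatives were DESeq2 1.42.0, RLE scaling, no low-count filter, no block, other limits on cells, thinning to 1000 UMIs, removal of possible doublets by markers and leaving out each mouse. Promoters came from RefSeq for GRCm38.p6. Some genes are not reported here.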

Additional observations from a re-analysis of the deposited data

Results flagged for a closer look

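Mouse 3 gave 591 smooth muscle cells, against 38, 74 and 4 in mice 1, 2 and 4. Its gap to the next mouse, as a part of the whole range, was 0.881 and passed Dixon's limit for 4 samples, while the same measure on the share of kept cells (0.824) did not. Chance flags about 1 in 20 groups. Mouse 3 also had the most barcodes and UMIs of the 4 libraries.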

How the results depend on the processing

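The counts of called genes moved with the processing, and no named called gene changed sign in any setting run. Against pericyte and mesangial cells, where 229 genes were higher and 222 lower, leaving out 1 mouse gave 31 to 385 higher and 83 to 274 lower. Without the replicate block, which pairs the classes of a mouse, 48 were higher and 65 lower. Thinning gave 130 higher and 76 lower among fewer genes tested, and no low-count filter gave 444 higher. Against renin-high cells, where 209 were higher and 156 lower, leaving out 1 mouse gave 94 to 308 higher and 103 to 359 lower. Without the replicate block there were 0 higher and 3 lower, with 367 genes at an unadjusted p under 0.05. DESeq2 gave 77 and 79, thinning 9 and 22, removal of possible doublets 89 and 62, and no low-count filter 343 higher. Beyond fewer genes or samples in some of these settings, the cause was not tested. Removal of possible doublets could be fitted against pericyte and mesangial cells only with 5 cells per mouse and class, a limit chosen after seeing the data (244 higher and 173 lower). A stricter pericyte gate and the fibroblast comparison could not be fitted. DESeq2 moved the median log2 fold change of all genes against pericyte and mesangial cells to -0.55 and no filter moved it to 0.61, from 0.07. The mean share of members was 0.468% without mouse 3. Of the calls against pericyte and mesangial cells, 24.6% were shared without mouse 2 and 81.4% without mouse 3. Precision is limited by the 447568 UMIs that the pericyte and mesangial class had over mice 1, 2 and 3.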
